A study of Mus musculus with 6 samples.

Results

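Notch signalling was described through 10 genes in sorted hair follicle cells of male mice: the receptors Notch1, Notch2 and Notch3, the ligands Jag1, Jag2 and Dll1, the DNA-binding partner Rbpj and the targets Hes1, Hey1 and Heyl. The genes were chosen by name, and every array probe whose RefSeq accession maps to one of them was used. This gave 13 of the 55681 probes, and all 10 genes of the 21368 that carry a symbol. RNA was measured on 1-colour Agilent arrays in 3 vehicle and 3 DMBA samples, each from different mice by the submitters' design text. All mice had been depilated, and they then received either acetone, the vehicle, or DMBA (7,12-dimethylbenz[a]anthracene), which starts skin tumours in mice, on the skin. Cells were taken 3 days later from the epidermis by high EGFP driven by K15 (keratin 15), high integrin alpha 6 and no surface Sca1, a gate that the labels call hair follicle stem cells and hair germ. The strain and age of the mice, and whether any mice were pooled, are not given in the sources used here.

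Notch receptors are cut after they bind a Jagged or Delta ligand on a neighbouring cell, and the freed intracellular part enters the nucleus. There it joins Rbpj, which sits on DNA at the letters GTGGGAA or close variants, and turns on repressors of the Hes and Hey families and feedback genes such as Nrarp. In skin the pathway is known for its part in leaving the basal layer, in building the hair shaft and inner root sheath, and in keeping follicle lineages apart.

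All levels are log2 processed intensities minus the log2 of the 75th percentile of the same array, so 0 means as bright as that percentile. Probes differ in how well they bind, so no level is set against that of another probe. The 75th percentile intensity ranged from 1758 to 2274 on the vehicle arrays and from 1355 to 2222 on the DMBA arrays. The share of probes well above background ranged from 77.0% to 83.6% and from 69.3% to 80.9%. A gene was tested when 3 or more of the 6 arrays had a probe of it well above background, and 17848 genes were. None passed an adjusted p of 0.05 in limma with Benjamini-Hochberg adjustment over all of them (0 called, which is 0% of genes; 933 had an unadjusted p under 0.05, which is 5.23%). With 3 arrays a group, an exact two-sided permutation test cannot go below p = 0.1. RNA came from pools of sorted cells, so fewer cells of a type and less RNA per cell cannot be told apart.

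Of the 10 genes, 9 were tested and 0 passed. Two-sided and unadjusted, 2 of the 9 had p under 0.05, the target Hey1 and the receptor Notch3, and both were higher after DMBA, the direction in which 2.73% of all genes tested had such a p. Those 2 were also the members whose DMBA arrays all lay above the vehicle arrays, as did 4.87% of all genes, and no member had all DMBA arrays below, against 5.17%. The count at unadjusted p was 1 without vehicle 2, where limma with Benjamini-Hochberg adjustment gave Notch3 an unadjusted p of 0.0516 and an adjusted p of 0.982. It was 3 without DMBA 1, the third gene being Notch1 (higher), and 3 without DMBA 2, the third being Dll1 (lower). The share of all genes with such a p in either direction was 5.1% without vehicle 2, 6.87% without DMBA 1 and 5.28% without DMBA 2. With each array's share of probes above background in the fit, the 2 counted were Hey1 (higher) and Notch2 (lower), not Notch3. In that fit 7.38% of all genes had such a p. Of the 9 genes, 4 were higher and 5 lower, with a median log2 difference of -0.16 against -0.01 over all genes tested, and the sign of the members' median turned when vehicle 1, DMBA 1 or DMBA 3 was left out (0.086, 0.090 and 0.073). Over the 12 member probes tested separately, 6 were higher (51.5% of all 44955 probes kept). At unadjusted p under 0.05 in limma, 2 of the 12 were called (4.9% of all probes), both higher (2.68%) and 0 lower (2.22%). The groups did not overlap in 3 that were higher (4.78%) and 0 that were lower (4.25%).

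The promoters printed here are those of Notch3 and the feedback gene Nrarp, a receptor and a target that lay higher on all DMBA arrays, of Rbpj itself, and of Hes5, a classical target whose promoter holds the full Rbpj letters. They are RefSeq sequences of build GRCm38.p6, from 250 bases before to 50 bases after an annotated start, written 5′ to 3′ on the strand of the gene. Capitals mark GTGGGAA, or its core TGGGAA, on either strand. Notch3 is chr17:32166841-32167140 on the minus strand, Nrarp chr2:25180508-25180807 on the plus strand, Rbpj chr5:53590096-53590395 on the plus strand and Hes5 chr4:154960673-154960972 on the plus strand.
Notch3: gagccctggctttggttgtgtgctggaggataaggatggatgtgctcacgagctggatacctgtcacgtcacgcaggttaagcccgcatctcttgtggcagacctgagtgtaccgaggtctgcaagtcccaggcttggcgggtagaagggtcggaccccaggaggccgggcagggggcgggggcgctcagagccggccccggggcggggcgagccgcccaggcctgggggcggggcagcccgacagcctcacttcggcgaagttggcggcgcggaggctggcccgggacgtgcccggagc
Nrarp: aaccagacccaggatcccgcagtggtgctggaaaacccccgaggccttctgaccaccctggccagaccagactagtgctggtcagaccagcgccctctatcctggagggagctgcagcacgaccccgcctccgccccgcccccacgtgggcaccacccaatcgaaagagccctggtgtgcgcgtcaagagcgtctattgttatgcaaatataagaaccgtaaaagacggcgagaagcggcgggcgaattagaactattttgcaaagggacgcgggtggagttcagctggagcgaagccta
Rbpj: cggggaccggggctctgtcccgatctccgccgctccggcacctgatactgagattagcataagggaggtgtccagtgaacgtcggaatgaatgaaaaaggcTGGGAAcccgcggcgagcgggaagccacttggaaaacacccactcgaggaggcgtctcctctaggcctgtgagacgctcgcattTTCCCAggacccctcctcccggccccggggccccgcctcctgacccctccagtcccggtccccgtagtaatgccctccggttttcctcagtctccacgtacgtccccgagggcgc
Hes5: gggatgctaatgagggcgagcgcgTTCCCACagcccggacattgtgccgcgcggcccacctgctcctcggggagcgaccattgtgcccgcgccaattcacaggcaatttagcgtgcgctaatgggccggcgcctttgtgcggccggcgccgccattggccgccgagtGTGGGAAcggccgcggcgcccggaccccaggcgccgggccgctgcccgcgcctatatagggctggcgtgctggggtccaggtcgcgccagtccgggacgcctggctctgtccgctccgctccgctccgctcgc

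Promoter sequences were at hand for 7 of the member genes, 9 promoters in all. They are those of the receptors, the ligands and Rbpj. None was at hand for the targets Hes1, Hey1 and Heyl, so no member target was searched. Of these 9 promoters 0 hold GTGGGAA on either strand, which 6.38% of all 32851 promoters of this length hold. The shorter TGGGAA, which is part of GTGGGAA, occurred in 2 of the 9 member promoters (22.2%), both of Rbpj, against 25.6% of all promoters. These 2 promoters overlap, and the only site of the second is also a site of the first. Among the other pathway genes, GTGGGAA occurred in 7 of 62 promoters (11.3%), including those of the target genes Hes5, Hey2 and Hes7, while TGGGAA occurred in 21% and CACNAG in 30.6% of the 62, below the shares of all promoters. The full Rbpj letters also occurred in promoters of Psen2, Aph1a, Spen and Lfng, which are listed here under roles other than target. The promoters of the targets Nrarp, printed above, and Hes6 held neither the full letters nor their core. In Hes5 a copy of the full letters on the gene's own strand begins 83 bases before the start, and another on the opposite strand lies 226 bases before it. The N-box CACNAG, the letters that Hes proteins bind, occurred in 4 of the 9 member promoters (44.4%) against 42.5% of all promoters, on either strand. Notch3 holds 2 copies and Notch1 holds 3, of which 2 overlap on opposite strands. These are letter matches in a short window.

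Notch3 is a receptor that keratinocytes express, and it is also abundant in the mural cells of vessels. It lay at -2.21, -3.11 and -2.05 on the arrays of vehicle 1 to 3 and at -1.48, -0.08 and -1.19 on those of DMBA 1 to 3. The groups did not overlap, every DMBA array being higher, and DMBA 2 stood highest. The difference was 1.54 on the log2 scale (SE 0.47, 95% confidence interval 0.39 to 2.69), a 2.91-fold higher level, with an unadjusted p of 0.0163 and an adjusted p of 0.844 in limma. Notch3 was 3.53 log2 units or more above the dimmest probe well above background on every array. The difference was 0.87 when each array's share of probes above background was a covariate (unadjusted p = 0.125 in limma).

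Notch1 is the main receptor of differentiating epidermal cells, and 2 probes read it. Its brighter probe lay at 1.24, 1.77 and 2.03 in vehicle and at 1.78, 2.54 and 2.44 in DMBA. Only DMBA 1 fell inside the vehicle range. The difference was 0.57 (SE 0.33, 95% confidence interval -0.23 to 1.37; adjusted p = 0.993 in limma). The dimmer probe gave 0.55 (SE 0.45), and there vehicle 1 stood apart at -0.03, the other 5 arrays lying between 1.29 and 1.76. Without vehicle 1 the values were 0.35 and 0.07, so the size of the difference on both probes depended on that array. With the share of probes above background fitted as a covariate, the brighter probe gave 0.077.

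Notch2, the receptor that acts beside Notch1 in the follicle, had 2 probes of opposite sign. On the brighter probe the vehicle arrays lay at 4.27, 3.87 and 4.14 and the DMBA arrays at 2.70, 3.94 and 3.99. DMBA 1 stood apart below, and the other DMBA arrays lay within the vehicle range. The difference was -0.55 (SE 0.40, 95% confidence interval -1.52 to 0.42), and -0.13 without DMBA 1. With the share of probes above background in the fit it was -1.11 (unadjusted p = 0.0407 and adjusted p = 0.675 in limma). On the dimmer probe the vehicle arrays lay at -0.71, -0.64 and -0.62 and the DMBA arrays at -0.27, -0.39 and -0.10. These did not overlap, and the difference was 0.40 (SE 0.21; unadjusted p = 0.103 and adjusted p = 1.00 over all probes in limma). The data do not give Notch2 a single direction.

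**Figure D1:**
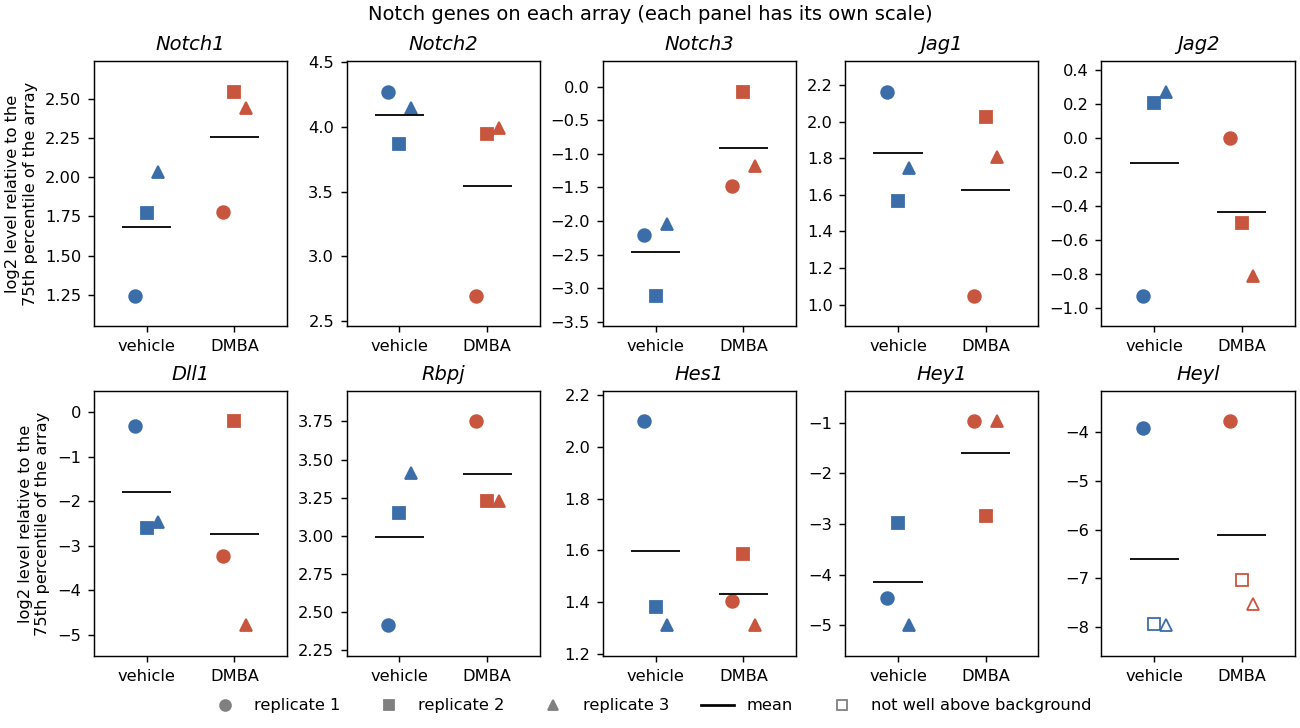
Log2 level relative to the array's 75th percentile (vertical axis, own scale in each panel) for the 10 genes, 3 vehicle arrays in blue and 3 DMBA arrays in red, with the group mean as a bar and the brighter probe where there are 2. Notch3 and Hey1 are the genes whose groups do not overlap. Dll1 spans over 4 log2 units within the DMBA group, and Heyl is well above background on 1 array of each group.

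None of the ligands had groups that separated. Jag1, a Jagged ligand expressed in the hair follicle, lay at 2.16, 1.57 and 1.75 in vehicle and at 1.05, 2.03 and 1.81 in DMBA. DMBA 1 was lowest and vehicle 1 highest, with the other 4 arrays between them. The difference was -0.20 (SE 0.34, 95% confidence interval -1.02 to 0.62), and 0.090 without DMBA 1. Jag2, a basal layer ligand, lay at -0.93, 0.20 and 0.27 in vehicle and at -0.0039, -0.50 and -0.81 in DMBA. Vehicle 1 was the lowest of all 6 arrays, and without it the difference of -0.29 (SE 0.41) was -0.68.

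Dll1, a Delta ligand expressed by basal keratinocytes, had the widest spread within groups of the 9 members tested. It lay at -0.31, -2.59 and -2.48 on vehicle 1 to 3 and at -3.23, -0.21 and -4.79 on DMBA 1 to 3. Vehicle 1 and DMBA 2 were nearly equal and high, while DMBA 3 was lowest, so each group held both high and low arrays. The probe was printed 10 times on each array. The SD over those spots was between 0.052 and 0.168 on each array, with 1 spot of DMBA 3 left out as a flagged outlier. The SD over the means of the 3 arrays was 1.29 in vehicle and 2.33 in DMBA. The spread between arrays was thus many times that between spots of 1 array. The residual SD of Dll1 was at percentile 98.2 of all genes tested, and its difference between the groups, -0.95 (SE 1.24, 95% confidence interval -3.96 to 2.05), ranged from -2.22 without DMBA 2 to 0.073 without DMBA 3. Vehicle 1 is the array on a slide of its own, whereas DMBA 2 shares its slide with the other 4.

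**Figure D2:**
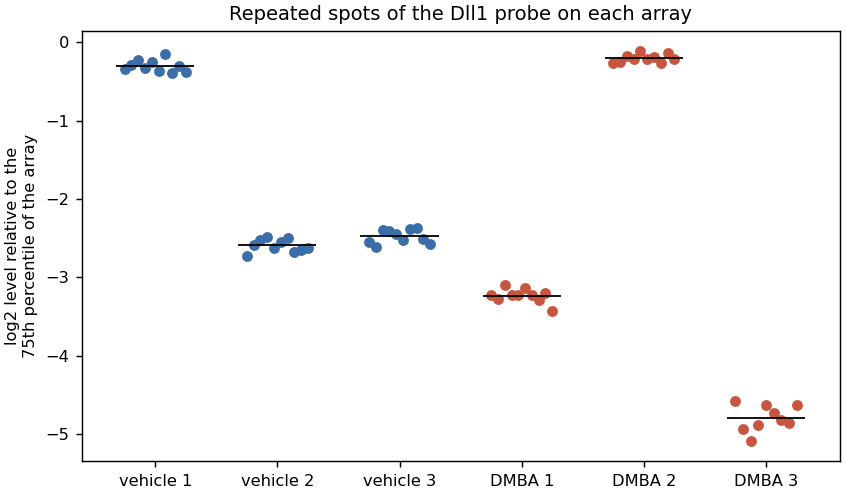
Log2 level relative to the array's 75th percentile (vertical axis) for each of the 10 printed spots of the Dll1 probe on each of the 6 arrays, 9 on DMBA 3, with the mean of the spots as a bar. The spots of an array lie close together, and the bars of vehicle 1 and DMBA 2 stand more than 2 log2 units above those of the other arrays.

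Rbpj, through which all Notch receptors act on DNA, had 2 probes of opposite sign. The brighter lay at 2.41, 3.15 and 3.41 in vehicle and 3.75, 3.23 and 3.23 in DMBA, with vehicle 1 lowest and DMBA 1 highest. Its difference was 0.41 (SE 0.34, 95% confidence interval -0.41 to 1.23), and 0.12 without vehicle 1. The dimmer probe lay at -0.29, -0.56 and -1.04 in vehicle and at -1.49, -0.62 and -0.45 in DMBA, so the groups overlapped on both probes, and its difference was -0.22 (SE 0.37).

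The 3 targets differed from each other. Hes1, the repressor that most tissues use as a Notch readout, lay at 2.10, 1.38 and 1.31 in vehicle and at 1.40, 1.58 and 1.31 in DMBA. Vehicle 1 stood apart above the other 5 arrays, which lay between 1.31 and 1.58. The difference was -0.16 (SE 0.29, 95% confidence interval -0.86 to 0.53) and 0.086 without vehicle 1.

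Hey1, a repressor that Notch switches on in many tissues and above all in vessels, had the largest difference of the members. It lay at -4.47, -2.99 and -5.00 on vehicle 1 to 3 and at -0.97, -2.84 and -0.97 on DMBA 1 to 3. The groups did not overlap, but DMBA 2 and vehicle 2 lay close to each other, and DMBA 1 and DMBA 3 carried most of the difference. This was 2.56 (SE 0.72, 95% confidence interval 0.82 to 4.30), a 5.89-fold higher level, with an unadjusted p of 0.0109 and an adjusted p of 0.758 in limma. By size of difference in either direction it was at percentile 99.5 of the genes tested. Leaving out any of the 6 arrays gave values from 2.13 to 3.18, each higher after DMBA. Hey1 was dim, with a margin of 1.82 log2 units over the dimmest probe well above background on the array where that margin was smallest. The lowest level of any probe was from -8.73 to -8.23 on the vehicle arrays and higher, from -8.01 to -7.32, on the DMBA arrays. With another background correction (normexp) the Hey1 difference was 1.88 (SE 0.50). The part of the background in this difference was not tested.

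Heyl, a close relative of Hey1, was well above background on vehicle 1 and DMBA 1 (-3.91 and -3.77) and on no other array. The other arrays lay between -7.97 and -7.02, near the lowest signals of the arrays. It was therefore not tested, and each group held 1 array with signal and 2 without.

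The order of the DMBA arrays was not the same for Notch3 and Hey1. DMBA 2 was the highest array for Notch3 and the lowest of its group for Hey1, and Nrarp was highest on DMBA 3.

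**Figure D3:**
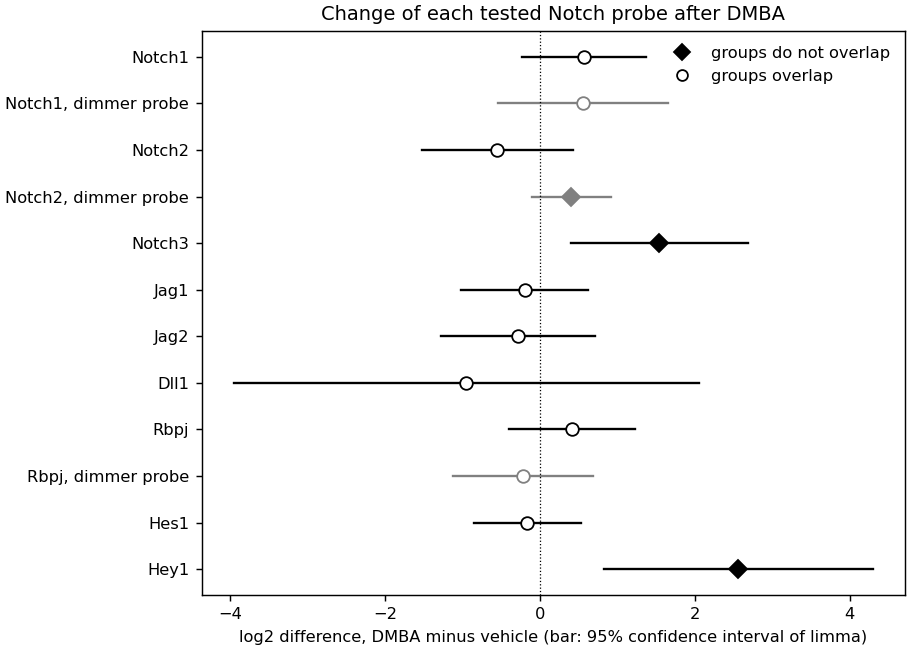
Log2 difference between DMBA and vehicle (horizontal axis) with its 95% confidence interval in limma for each of the 12 tested probes, from the fit over genes for the probe that stands for a gene and from the fit over probes for the dimmer ones in grey. The intervals of Notch3 and Hey1 lie above 0 before any adjustment, the 2 probes of Notch2 and of Rbpj lie on opposite sides of 0, and Dll1 has the widest interval.

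The other genes of the pathway formed a list of 59, of which 57 had a probe and 54 were tested. After DMBA 18 of the 54 were higher and 36 lower, with a median log2 difference of -0.12 against -0.01 over all genes, where 48.8% of genes were higher. None passed over all genes (0 of 54; smallest adjusted p = 0.872 in limma). At unadjusted p under 0.05, 3 were higher (2.73% of all genes) and 2 lower (2.49% of all genes). The groups did not overlap in 4 that were higher (4.87% of all genes) and 6 that were lower (5.17% of all genes). The count of 5 at unadjusted p was 0 without vehicle 1, 3 without vehicle 3 or DMBA 3, 2 without DMBA 1 and 1 without DMBA 2. The share of all genes was 4.97% without vehicle 1 or vehicle 3, 5.13% without DMBA 3, 6.87% without DMBA 1 and 5.28% without DMBA 2.

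Nrarp, a direct target that feeds back on the Notch complex, lay at 0.51, 0.78 and 0.68 in vehicle and at 1.103, 1.43 and 1.67 in DMBA. Every DMBA array lay above every vehicle array, and the arrays of each group lay close together. The difference was 0.74 (SE 0.24), a 1.67-fold higher level (unadjusted p = 0.0213 and adjusted p = 0.872 in limma). The other targets tested lay near 0. Hes5, whose promoter is printed above, had a difference of -0.093 (SE 0.22), Hes6 -0.025 (SE 0.32), Hes7 -0.20 (SE 0.22) and Hes2 0.30 (SE 0.48). For Hey2 and Hes3 no array had signal well above background.

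Of the glycosyltransferases that add sugars to the receptors, 3 of 6 were higher and 3 lower. Poglut1, which adds glucose to their extracellular repeats, lay at 1.14, 1.17 and 0.76 in vehicle and at 1.91, 1.58 and 1.44 in DMBA, without overlap. Its difference was 0.62 (SE 0.25; unadjusted p = 0.0453 and adjusted p = 0.942 in limma). Mfng, a Fringe enzyme that shifts receptors between ligands, had a difference of 0.37 (SE 0.23), also without overlap, while its relatives Lfng and Rfng had 0.048 (SE 0.42) and -0.0063 (SE 0.21).

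Among the corepressors, which hold Rbpj targets silent without Notch or assist Hes proteins, 8 of 10 were lower and 2 higher, with a median of -0.34. Over all genes 48.8% were higher. The count uses each gene's brightest probe, and Tle4 had -0.81 on that probe and 0.52 on its dimmer one. Tle2 had 0.11 on its brighter probe. Its dimmer probe gave 1.46 (SE 0.43; unadjusted p = 0.0140 and adjusted p = 0.851 over all probes in limma), with all DMBA arrays higher. Spen had the lowest value, -1.50 (SE 1.22), with DMBA 1 at -5.14. Its other DMBA arrays lay at -0.46 and -0.86, and its vehicle arrays at -0.73, -0.38 and -0.85. Cir1, which links Rbpj to histone deacetylases, lay at 2.64, 1.94 and 2.49 in vehicle and at 1.46, 1.45 and 1.69 in DMBA, all lower. Its difference was -0.82 (SE 0.27; unadjusted p = 0.0204), and 0.29 (SE 0.69) on its dimmer probe. Ncor1, a platform for deacetylases, had a difference of -0.71 (SE 0.27; unadjusted p = 0.0367) on its brightest probe and 0.90 and 0.028 on the other 2. The mean over its 3 probes had the opposite sign (0.071). Tle1, a Groucho protein that Hes and Hey factors recruit, went the other way with 0.89 (SE 0.36; unadjusted p = 0.0465), and its 3 other probes were also higher (0.24, 0.36 and 1.00). The adjusted p in limma was from 0.872 to 0.942 for these 3 genes. Ctbp1 and Tle3, named after their values were seen, had -0.35 (SE 0.23) and -0.32 (SE 0.21), also with all DMBA arrays below the vehicle arrays.

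Among the other receptors and ligands, Dlk1, a ligand relative without the Notch-activating domain, had -0.43 (SE 0.24) with all DMBA arrays lower. Its dimmer probe gave 0.42 (SE 0.37). Notch4 and Dll4, which are typical of endothelium, had -0.79 (SE 0.44) and -0.083 (SE 0.33) with overlap, and Dner had no array with signal well above background. Of the genes for ligand endocytosis Epn1 had -0.35 (SE 0.24) with all DMBA arrays lower. None of the 8 proteases, which include Adam10 (-0.14, SE 0.24) and the gamma-secretase subunit Ncstn (0.26, SE 0.29), had groups that did not overlap (0 of 8; over all genes 4.87% were without overlap higher and 5.17% lower). The same held for the 7 coactivators, which ranged from Maml1 at -0.96 (SE 0.48) to Maml2 at 0.96 (SE 0.55; -0.58, SE 0.46, on its dimmer probe), and for the 8 regulators, which ranged from Numbl at -1.04 (SE 0.49) to Dtx3 at 1.37 (SE 0.67).

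**Figure D4:**
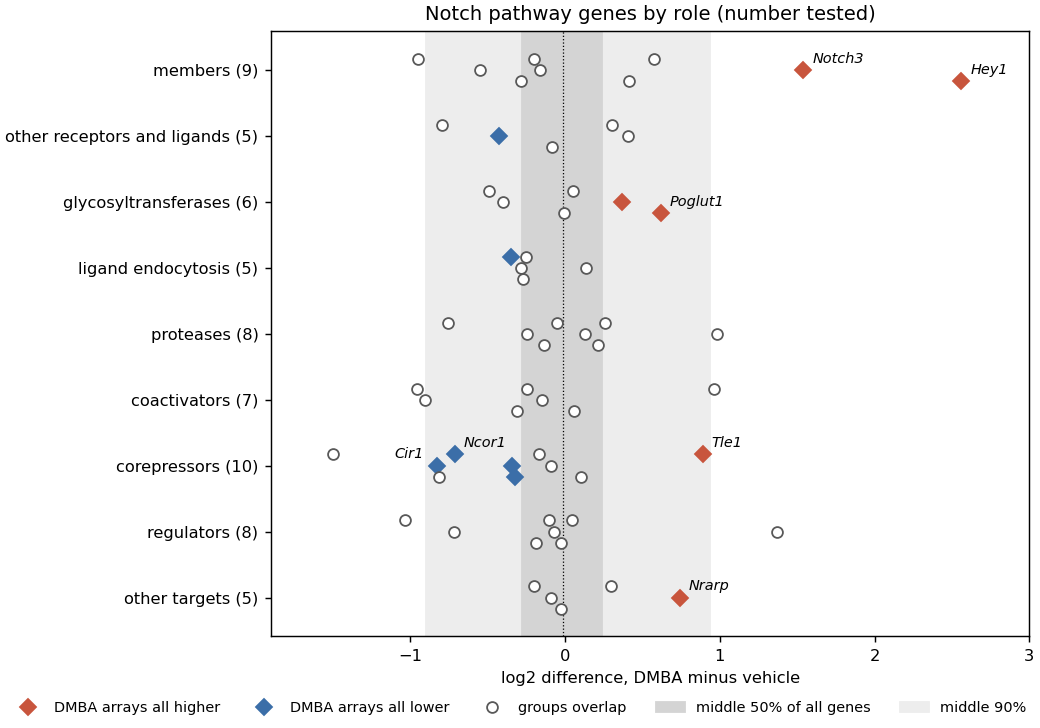
Log2 difference between DMBA and vehicle (horizontal axis) for the 9 tested members and the 54 other tested pathway genes by role, 1 point per gene. Diamonds mark genes whose groups do not overlap, and the grey bands hold the middle 50% and the middle 90% of all 17848 genes. Hey1 and Notch3 lie furthest to the right, outside both bands.

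Notch3, Hey1 and Nrarp are also expressed by cells other than keratinocytes, so marker lists were read on the same arrays. The markers that the sort selected for were present. Krt15 lay at 5.70, 5.91 and 5.83 in vehicle and at 6.49, 5.74 and 5.79 in DMBA. Itga6, the gene of integrin alpha 6, lay at 2.46, 2.42 and 2.68 in vehicle and at 1.76, 2.80 and 2.42 in DMBA (difference -0.19, SE 0.32). All 8 stem cell and hair germ markers, with Lgr5, Cd34, Sox9 and Lhx2 among them, were well above background on every array. Lgr5 had a difference of -0.64 (SE 0.22; unadjusted p = 0.0243 and adjusted p = 0.894 in limma), with every DMBA array below every vehicle array. Sox9 had -0.50 (SE 0.24), also without overlap. Of the 8 markers 2 were higher (48.8% of all genes) and 6 lower, and 2 were lower without overlap (5.17% of all genes). Ly6a, the gene of Sca1, which the gate excluded at the surface, lay at -0.20, -1.67 and -1.78 in vehicle and at 0.29, 0.27 and 0.13 in DMBA, higher on all DMBA arrays as Notch3 and Hey1 were (difference 1.45, SE 0.45; unadjusted p = 0.0175 and adjusted p = 0.854 in limma).

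The mural markers, which go with Notch3 in vessels, did not separate. Their summed level over 6 genes, in multiples of the 75th percentile, ranged from 1.61 to 3.24 in vehicle and from 2.59 to 2.60 in DMBA. The defining markers Pdgfrb and Rgs5 had no array with signal well above background, against 4 of the list on every array. Cspg4 was the largest part of the sum on every array, with a difference of 0.32 (SE 0.47). Of the 4 mural markers tested 3 were higher and 1 lower. Of the 6 endothelial markers the sum ranged from 2.21 to 2.37 in vehicle and from 2.10 to 2.84 in DMBA. Of the 3 vehicle and 3 DMBA arrays, Cdh5 was well above background on 1 and 0, and Pecam1 on 3 and 2. Pecam1 had a difference of -0.51 (SE 0.34), and of the 5 endothelial markers tested 3 were higher and 2 lower, Tek having the largest value (0.74, SE 0.80). Kdr carried most of that sum on 1 probe, while its other probe had no array with signal well above background.

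The fibroblast list was the one whose sums did not overlap, from 0.558 to 0.582 in vehicle and from 1.11 to 1.35 in DMBA. The full separation needed Dcn. Without Dcn, a setting chosen after seeing the data, the sums were 0.262, 0.340 and 0.248 in vehicle and 0.330, 0.399 and 0.483 in DMBA. These overlap only in that vehicle 2 lay just above DMBA 1. Dcn, which encodes decorin, had a difference of 1.51 (SE 0.25; unadjusted p = 0.000799 and adjusted p = 0.445 in limma), whereas Lum was well above background on 1 array of each group and Pdgfra on none. Of the 6 genes of the list, 4 or 5 were well above background on each array. Of the 4 tested 3 were higher (48.8% of all genes), 2 of them, Dcn and Col1a1, without overlap (4.87% of all genes). Col1a1 had a difference of 1.29 (SE 0.57; unadjusted p = 0.0631 and adjusted p = 0.963 in limma) and Corin 0.43 (SE 0.32). Col3a1 was lower (-0.52, SE 0.34). The part of these cells in the values of Notch3, Hey1 and Nrarp was not tested.

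The other lists overlapped between the groups. Suprabasal markers summed to between 53.8 and 130.2 in vehicle and between 91.0 and 123.3 in DMBA, with vehicle 1 lowest. Krt10 had a difference of 0.71 (SE 0.67) on its brighter probe and 0.12 (SE 0.37) on the dimmer, and Krt1 had 0.55 (SE 0.55). Ivl, the gene of involucrin, had -0.53 (SE 0.97) on its brighter probe and -1.26 (SE 0.38) on the dimmer, where all DMBA arrays were lower (unadjusted p = 0.0161 and adjusted p = 0.887 over all probes in limma). The list of hair matrix and inner root sheath summed to between 12.3 and 16.3 and between 13.4 and 14.7. Tchh, the gene of trichohyalin, had 1 vehicle and 3 DMBA arrays with signal well above background, so it was tested only through its DMBA arrays and no size is given. It lay at -7.10, -5.54 and -7.94 in vehicle and at -3.79, -3.50 and -3.59 in DMBA. Gata3, a regulator of the inner root sheath, had a difference of 0.025 (SE 0.22). Melanocyte markers summed to between 1.82 and 4.19 and between 3.96 and 6.45. Mlana had a difference of 2.72 (SE 0.95) with overlap (unadjusted p = 0.0269 and adjusted p = 0.896 in limma). Tyrp1 was well above background on 1 vehicle and 3 DMBA arrays, and lay at -8.22, -3.62 and -7.19 in vehicle and at -2.24, -2.01 and -4.72 in DMBA, with overlap. Dct and Pmel had differences of -0.046 (SE 0.56) and -0.47 (SE 1.20). Leukocyte markers summed to between 1.93 and 7.05 and between 2.69 and 3.12, with Ptprc at -0.093 (SE 0.24) and Cd3e at 0.18 (SE 0.28).

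**Figure D5:**
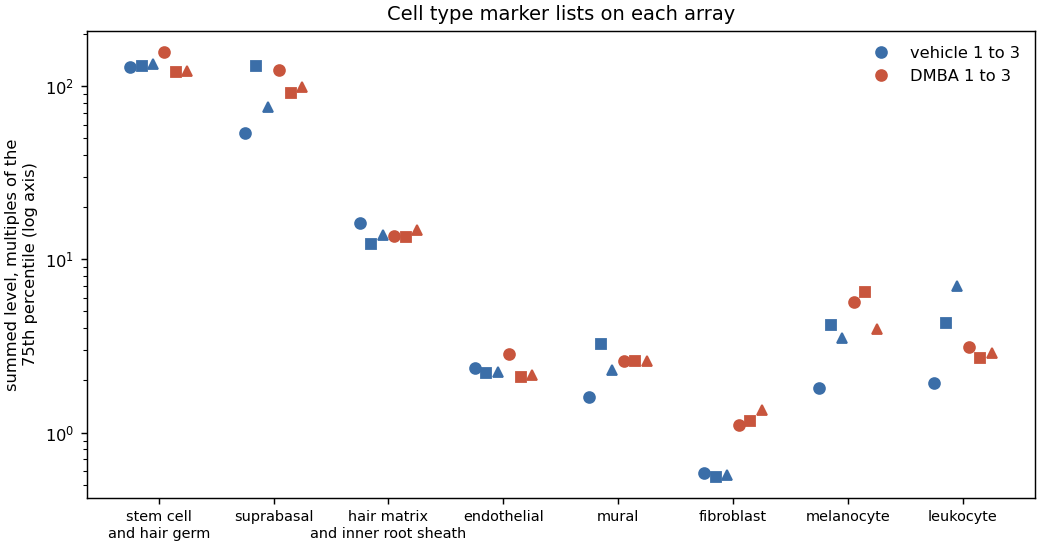
Summed level of 8 marker lists on each array, in multiples of the array's 75th percentile (log axis), with the 3 vehicle arrays in blue and the 3 DMBA arrays in red, 1 point per array and the brightest probe of each gene. The fibroblast list is the one whose groups do not overlap. Without Dcn its sums are 0.262, 0.340 and 0.248 in vehicle and 0.330, 0.399 and 0.483 in DMBA, where only vehicle 2 and DMBA 1 cross.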

How the data were processed

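RNA of sorted cells was labelled with Cy3 and hybridised to Agilent arrays, 1 array per sample. The scanner software was Agilent Feature Extraction 10.7.1.1 per the file headers, and its processed signal, an intensity corrected for background, is what the deposited scanner files hold. The flag for well above background, 0 or 1, is also as deposited. The probe annotation in the headers names mm9. The deposited matrix of the series holds intensity divided by each array's 75th percentile (column 75th percentiles from 1.004 to 1.007, medians from 0.154 to 0.172), and it served as an alternative.

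The steps computed here used limma 3.58.1 under R 4.3.3. Levels are log2 intensity minus the log2 75th percentile of each array over spots that are not controls, with 3671 control spots left out, 878 outlier-flagged spot values set aside and spots of a probe averaged. Probes were named through RefSeq accessions without version (GRCm38.p6 table, names only; 28331 probes matched, 27350 did not). A gene is its brightest kept probe over all 6 arrays. DMBA was compared with vehicle by lmFit and eBayes, two-sided, over 17848 genes and separately over 44955 probes, with Benjamini-Hochberg adjustment at 0.05, and the steps were checked on simulated data.

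Genes named are the 10 members, pathway genes with an unadjusted p under 0.05 or, per role, up to 2 without overlap, the sort markers, the first 2 markers of each list and markers with such a p. Other pathway genes and markers named, such as those at the ends of a role's range, were chosen after their values were seen. The members, lists and tests were chosen with earlier results of these data known. The correlation between arrays across genes was at most 0.951, and no 2 held the same values. Alternatives were background correction, normalization, filter, probe choice, slide, replicate number, a covariate, array weights and each array left out.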

Additional observations from a re-analysis of the deposited data

How the results depend on the processing

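Under 10 alternatives in processing and with each of the 6 arrays left out, Hey1, Notch3 and Nrarp stayed higher after DMBA (log2 differences from 1.88 to 3.54, from 0.87 to 1.82 and from 0.56 to 0.89), and none of the 3 passed an adjusted p of 0.05 in limma under any of these (lowest 0.555 for each). Over all genes 0 passed under each alternative, and from 0 to 1 when each array was left out, the 1 without vehicle 2 being Apln. Over all probes 3 passed with normexp, which ran on median spot signals, the column the files give, and 0 otherwise, from 0 to 0 when each array was left out. Without the filter on dim probes 1258 genes were higher at unadjusted p under 0.05 and with the covariate 757, against 488; 727 were lower without DMBA 1, against 445. The covariate moved the median of all genes from -0.01 to 0.10. The median of the members, -0.16, was 0.12 without the filter, which adds Heyl, 0.017 with array weights and 0.086 with a slide block, the same fit as without vehicle 1. It ranged from -0.24 to 0.090 when each array was left out, and their count at unadjusted p from 1 to 3. The share of all genes at unadjusted p then ranged from 4.97% to 6.87%. The count of other pathway genes at unadjusted p was 5, 3 with the mean over probes (5.33% of all genes), 0 with slide as a block (4.97%), and from 0 to 4 when each array was left out. Their median stayed below 0, from -0.20 to -0.05. With the core TGGGAA the member genes with a motif were 1 rather than 0, of the 7 with a promoter sequence, which leave out Hes1, Hey1 and Heyl. Signs turned for Hes1 with slide as a block or without vehicle 1 (0.086), Jag1 with array weights (0.017), and Ncor1 with the mean over probes (0.071). With each array left out, Hes1 ranged from -0.31 to 0.086, Jag1 from -0.40 to 0.090, Dll1 from -2.22 to 0.073 and the dimmer Rbpj probe from -0.43 to 0.099. The cause was not tested. Same-numbered arrays did not deviate together (r across genes 0.018, -0.020 and 0.059). With the replicate number as a block, 0 genes passed, Hey1 kept 2.56, 2 members had an unadjusted p under 0.05 and 4 other pathway genes did (5.49% of all genes). The number of arrays and the dim signal of Hey1, Dll1 and Heyl limit what can be read here.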

Other observations

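Probes of the same gene often differed in sign in this comparison. Of the 3 members with more than 1 kept probe, 2 had probes with log2 differences on both sides of 0, Notch2 and Rbpj. Among the other pathway genes this was so in 11 of 22, and over all genes tested in 2046 of 4641 (44.1%).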
